A study of Mus musculus with 10 samples.

Results

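The 41 nucleolar ribosome biogenesis factors described here are a fixed list of genes, chosen by their roles in ribosome assembly and looked up by symbol in the deposited expression table. All 41 are among its 20270 genes, and all 41 passed the filter on low values (15143 genes did). They were set against the 79 cytosolic ribosomal protein genes, the structural proteins that these factors help to assemble into ribosomes. The RNA came from hematopoietic stem cells (HSCs), the blood-forming stem cells, purified by flow sorting of bone marrow from C57BL/6 recipients of lineage-negative donor cells. There were 4 groups: KO-labelled stressed (Id1-/-, 2 libraries), WT-labelled stressed (Id1+/+, 2 libraries), KO-labelled normal (Id1-/-, 3 libraries) and WT-labelled normal (Id1+/+, 3 libraries). All cells in all groups were therefore taken from transplanted recipients. The labels place the harvest at 4 weeks after transplantation and the series design at 6 weeks, and neither says what the stressed condition was. Whether replicates are separate recipients or pools is not stated in the labels, and p-values therefore reflect only spread among libraries, which may be technical.

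Ribosomes are built in the nucleolus, where RNA polymerase I transcribes a long precursor of the ribosomal RNAs (rRNAs). Small nucleolar ribonucleoproteins (snoRNPs) modify this precursor, those with box C/D RNAs by methylation and those with box H/ACA RNAs by pseudouridylation, and large sets of processing factors cut it and assemble it with ribosomal proteins into the small and large subunits. HSCs are known for making protein at a lower rate than the progenitors they give rise to. Id1 encodes a helix-loop-helix protein without a DNA-binding region that blocks the binding of E proteins to DNA.

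Id1 itself had 9.06 and 8.44 CPM (counts of a gene per fixed total of reads) in the KO-labelled stressed libraries, against 1.28 and 4.39 CPM in the WT-labelled stressed libraries. It had 13.19, 10.58 and 9.62 CPM in the KO-labelled normal libraries, against 1.35, 1.72 and 3.17 CPM in the WT-labelled normal libraries. The Id1 transcript was thus higher in libraries labelled KO in both conditions, which goes against the label unless the allele leaves a counted transcript, and the sources used here do not describe the allele. Each direction below is the direction between libraries as labelled. Estimated depth was 25700000 to 33000000 reads per library, so that 1 CPM corresponds to roughly 25.7 to 33 reads. The estimate was read from values that share nearly 1 distribution over the libraries, so it is only approximate for each library. In each library 10 of 10 HSC markers were detected. The HSC markers summed to 3247 and 3314 CPM in KO-labelled stressed, 3546 and 3613 in WT-labelled stressed, 3777 to 3948 in KO-labelled normal and 4316 to 4619 in WT-labelled normal libraries. The 6 megakaryocyte and platelet markers summed to 1382 and 1385, 1294 and 1318, 781.2 to 830.3 and 894.6 to 917.6 CPM in the same order of groups. The 12 granulocyte and monocyte markers summed to 392.7 and 395, 399.8 and 421.8, 433.4 to 476.3 and 342.2 to 380.7 CPM in that order. These sums overlapped between genotypes in neither condition, with KO-labelled libraries higher in normal and lower in stressed HSCs. Lyz2 made up most of them, with 271.48 and 283 CPM in KO-labelled stressed and 320.04 and 298.91 CPM in WT-labelled stressed libraries. Single markers did not all follow the sum: Mpo had 24.71 and 24.03 CPM in KO-labelled stressed libraries, against 6.53 and 2.55 CPM in WT-labelled stressed libraries. The part of these shifts in the results below was not tested, and in bulk RNA fewer cells of a type and less RNA per cell cannot be told apart.

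Most of the factors differed little between groups. Across the 4 pairwise comparisons the 41 factors gave 164 differences of group means, of which 132 were under 0.2 in size on the log2 CPM scale, and the largest was 0.544. A gene is called changed here when its adjusted p is under 0.05 in a limma fit over all 15143 genes. By that rule 5 factors were called in at least 1 comparison (Npm1, Nop10, Ncl, Rrs1 and Rrp12; 12.2%) and 36 in none, against 7.09% of all genes called in at least 1 of the 5 comparisons. The 41 factors together made up 0.848 and 0.865% of CPM in KO-labelled stressed, 0.827 and 0.837% in WT-labelled stressed, 0.799 to 0.819% in KO-labelled normal and 0.814 to 0.831% in WT-labelled normal libraries. The ribosomal protein genes made up 2.98 and 3.02%, 2.78 and 2.86%, 3.21 to 3.48% and 2.58 to 2.60% in the same order. For every 100 CPM of ribosomal protein transcripts there were thus 23.5, 24.9 and 24.0 CPM of nucleolar factor transcripts in the KO-labelled normal libraries, against 32.2, 31.6 and 31.4 CPM in the WT-labelled normal libraries. In stressed HSCs the same ratio was 29.1 and 28.1 CPM in KO-labelled libraries, against 28.9 and 30.1 CPM in WT-labelled libraries, and the 2 genotypes overlapped.

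**Figure D1:**
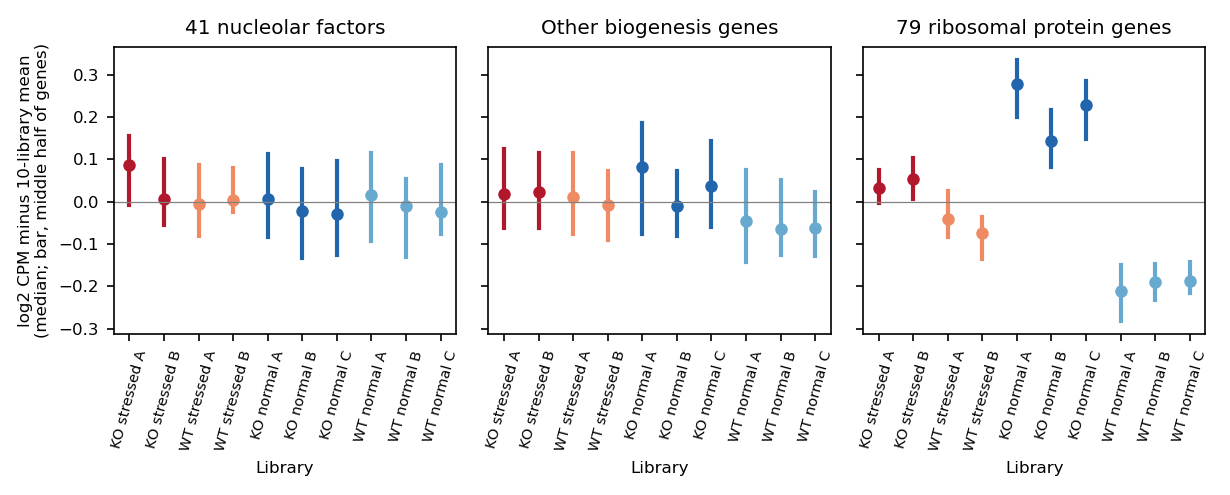
Median deviation of each list's genes from their own 10-library mean (vertical axis, log2 CPM; points, median; bars, middle part of the genes from the first to the third quartile) in each library (horizontal axis), for the 41 nucleolar factors, 102 other ribosome biogenesis genes and 79 ribosomal protein genes. The medians of the nucleolar factors lie between -0.029 and 0.086, while those of the ribosomal proteins lie between 0.14 and 0.28 in KO-labelled normal and between -0.21 and -0.19 in WT-labelled normal libraries.

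RefSeq promoter windows (build GRCm38.p6, 250 bases before to 50 after a start site) were found for 35 of the 41 factors, 44 windows in all. The windows not found were those of Bop1, Fbl, Tcof1, Npm1, Rrs1 and Rrp12. The bases just before the start are shown for Ncl, Nop10 and Nhp2, on which the results below turn most among the factors with a window, and shorter stretches are shown for the 3 factors with an E-box in the 250 bases before the start. The E-box, with the letters CACGTG, is the element that MYC and its partner MAX are known to bind, and ribosome biogenesis genes are widely known as MYC targets. Capitals mark matches to CACGTG or to CCGGAAG, the core bound by ETS factors, on either strand.
Ncl, 150 bases before the start, chr1:86359456-86359605, minus strand: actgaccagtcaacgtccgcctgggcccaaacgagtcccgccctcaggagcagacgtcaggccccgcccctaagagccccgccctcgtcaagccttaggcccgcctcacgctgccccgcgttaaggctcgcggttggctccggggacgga
Nop10, 150 bases before the start, chr2:112261776-112261925, plus strand: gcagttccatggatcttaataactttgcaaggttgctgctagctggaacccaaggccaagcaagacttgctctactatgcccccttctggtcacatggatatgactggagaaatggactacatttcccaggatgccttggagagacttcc
Nhp2, 150 bases before the start, chr11:51619623-51619772, plus strand: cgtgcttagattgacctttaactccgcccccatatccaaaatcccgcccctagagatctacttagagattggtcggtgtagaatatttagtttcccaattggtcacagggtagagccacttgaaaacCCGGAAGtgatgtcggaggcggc
Nop2, 60 bases, chr6:125131796-125131855, plus strand: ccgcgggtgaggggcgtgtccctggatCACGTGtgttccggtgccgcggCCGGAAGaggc
Imp4, 60 bases, chr1:34439681-34439740, plus strand: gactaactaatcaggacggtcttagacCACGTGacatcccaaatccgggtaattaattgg
Rrn3, 60 bases, chr16:13780457-13780516, plus strand: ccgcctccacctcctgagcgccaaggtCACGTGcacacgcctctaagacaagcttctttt
Within the 250 bases before the start, CACGTG was present in 3 of the 44 windows (6.82%), against 6.02% of all 32851 windows. CCGGAAG was present in 7 windows (15.9%; Ddx10, Gar1, Heatr1, Ltv1, Nhp2, Nolc1 and Nop2), against 6.91% of all windows and 27.9% of the 68 windows of ribosomal protein genes. GCCATNTT, the core bound by YY1, was present in 1 window (2.27%, Imp4), against 3.91% of all windows and 19.1% of the ribosomal protein windows. None of these letters contains another motif, and a match describes the sequence, not binding. The 150 bases shown for Ncl and Nop10 hold no match to these 3 motifs.

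In normal HSCs, 2 of the 41 factors (4.88%) were called, both higher in KO-labelled than WT-labelled libraries, against 1.56% of all genes tested and 1.23% called higher. The 2 were Npm1 and Nop10. Of the 41 differences 21 were above 0 and 20 below, with a median of 0.011 on the log2 CPM scale, beside a median of -0.0083 over all genes. The ribosomal protein genes gave a different count: 67 of 79 (84.8%) rose and 0 fell, 32 of 32 of the small subunit and 35 of 47 of the large subunit, with a median of 0.41. The smallest p-values among them belonged to Rpl41 (0.68, SE 0.053), Rpl17 (0.70, SE 0.054), Rpl36 (0.65, SE 0.052) and Rps14 (0.51, SE 0.042). Among 102 other tested ribosome biogenesis genes from a second list, limma called 0, with 15 higher and 5 lower at an unadjusted p under 0.05 (19.6%, against 13.9% of all genes) and a median of 0.083. Libraries of the 2 genotypes in normal HSCs did not overlap for 14 factors (34.1%), 6 with KO-labelled libraries higher and 8 lower, against 19.5% of all genes tested. The factors varied less within groups than genes at large, with a median SD of 0.10 on the log2 scale against 0.22 over all genes tested. Some markers of granulocytes and monocytes moved with the same comparison. Mpo, a granule enzyme of myeloid progenitors, had 14.51 to 16.35 CPM in KO-labelled normal libraries, against 1.94 to 4.60 CPM in WT-labelled normal libraries, and Elane, neutrophil elastase, had 5.51 to 6.09 CPM, against 0.06 to 1.86 CPM. Mpo and Elane kept this order in stressed HSCs. Elane had 1.29 and 2.19 CPM there in KO-labelled libraries, against 0.42 and 0.02 CPM in WT-labelled ones. Not all listed markers moved this way. Csf1r had 1.39, 0.02 and 2.55 CPM in KO-labelled normal libraries, against 4.04, 5.31 and 0.32 CPM in WT-labelled normal ones. The part of these markers in the differences of the factors and the ribosomal protein genes was not tested.

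**Figure D2:**
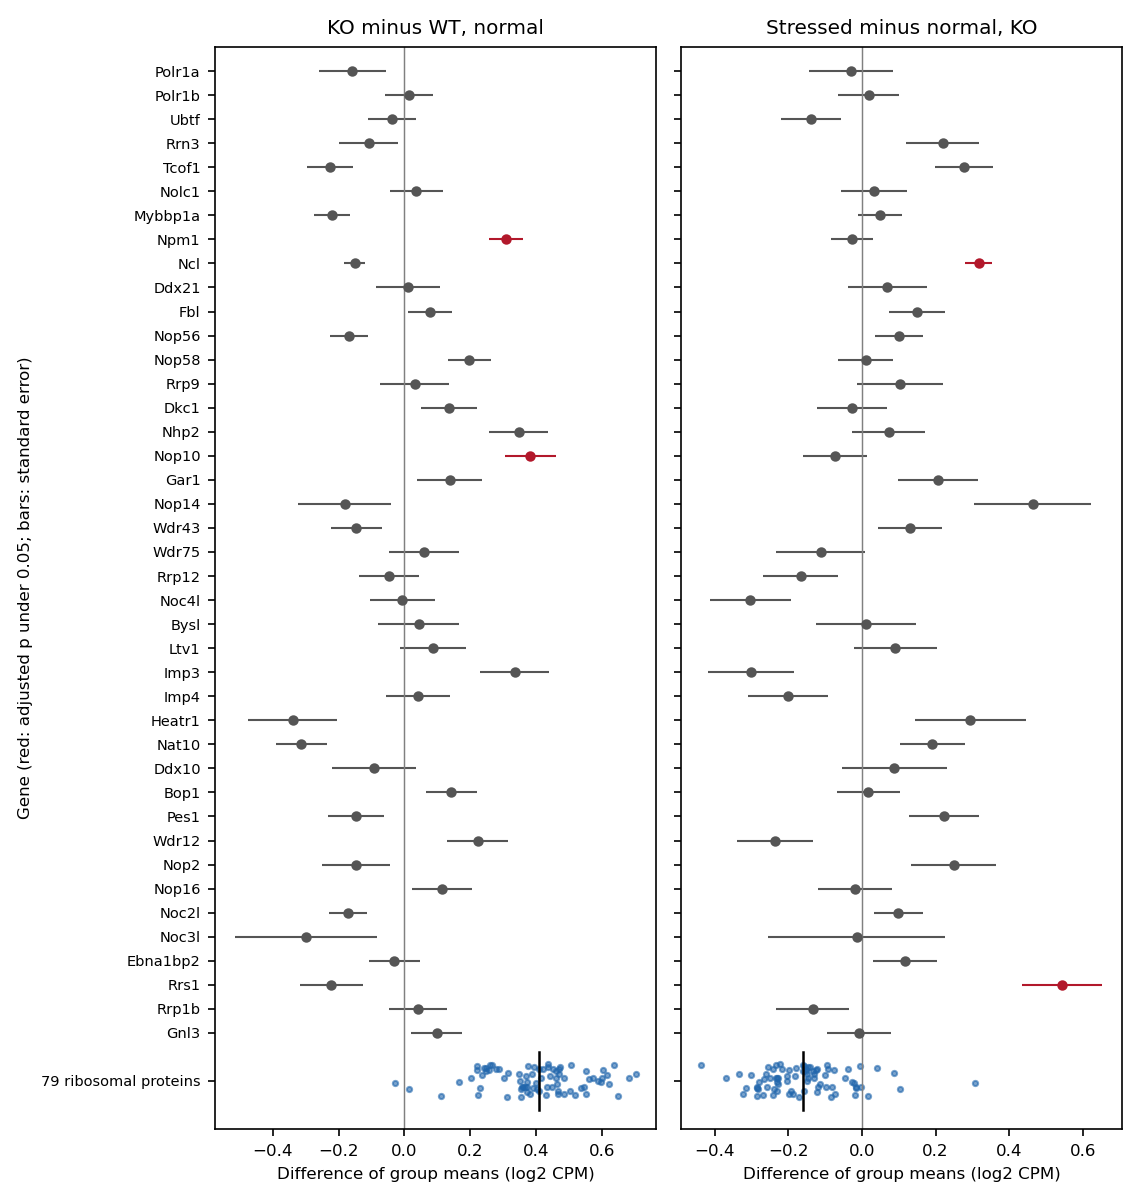
Difference of group means for each factor (horizontal axis, log2 CPM; bars, standard error) for KO-labelled minus WT-labelled normal HSCs (left) and stressed minus normal KO-labelled HSCs (right); red marks factors with an adjusted p under 0.05, and the lowest row shows the 79 ribosomal protein genes (points) with their median (line). The factors lie on both sides of 0 in both panels, while the medians of the ribosomal proteins are 0.41 and -0.16.

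The abundant nucleolar proteins are Npm1 (nucleophosmin, a chaperone of ribosome export and nucleolar structure), Ncl (nucleolin, which binds the rRNA precursor) and Ddx21 (an RNA helicase of RNA polymerase I transcription and processing). Npm1 (chr11:33152287-33163206, minus strand, GRCm38) had 638, 554 and 612 CPM in KO-labelled normal libraries, against 484, 494 and 476 CPM in WT-labelled normal libraries. The 2 groups did not overlap, and Npm1 rose by 0.31 on the log2 scale (SE 0.051, 1.24-fold, adjusted p = 0.0095). The call was lost in 3 of 20 alternative settings, 1 of them the fit without WT-labelled normal library C (adjusted p = 0.057; range over the alternatives 0.0025 to 0.17). In stressed HSCs Npm1 had 587 and 592 CPM in KO-labelled libraries, against 549 and 538 CPM in WT-labelled libraries. That difference was 0.12 on the log2 scale and was not called. Against WT-labelled normal libraries, WT-labelled stressed libraries were higher by 0.16 (SE 0.057, adjusted p = 0.16), and the interaction of genotype and condition was -0.19 (SE 0.081, adjusted p = 0.51). Processed pseudogenes at least 95% identical to Npm1 over 200 or more aligned bases are in the annotation. The most abundant one in the table, Gm6477, averaged 1.39 on the log2 CPM scale, against 9.10 for Npm1, and how reads shared between them were counted is not given in the sources used here.

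Ncl (chr1:86344719-86359400, minus strand) was the most abundant factor in CPM. It had 1370 and 1350 CPM in KO-labelled stressed libraries, against 1060, 1130 and 1100 CPM in KO-labelled normal libraries. The groups did not overlap, and Ncl rose by 0.32 on the log2 scale in stressed KO-labelled HSCs (SE 0.037, 1.25-fold, adjusted p = 0.00075). In WT-labelled HSCs it had 1210 and 1210 CPM in stressed libraries, against 1260, 1210 and 1180 CPM in normal libraries, a difference of -0.0077. The interaction was 0.32 (SE 0.053, adjusted p = 0.075) and did not pass the threshold. KO-labelled libraries were lower than WT-labelled ones in normal HSCs, by -0.15 (SE 0.033, adjusted p = 0.050, just over the threshold), and higher in stressed HSCs, by 0.17 (SE 0.041, adjusted p = 0.23). The libraries did not overlap in either condition. Under quantile normalization genes at 1 rank receive 1 value, and 3 libraries share theirs for Ncl, so its SE may be too small. Ncl lost its call in stressed against normal KO-labelled HSCs in 1 of 20 alternatives, the fit without a variance trend (adjusted p = 0.086; range 0.00042 to 0.086). Ddx21 differed by 0.011 between the genotypes in normal HSCs and by 0.069 and 0.063 between stressed and normal HSCs labelled KO and WT, and was not called.

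**Figure D3:**
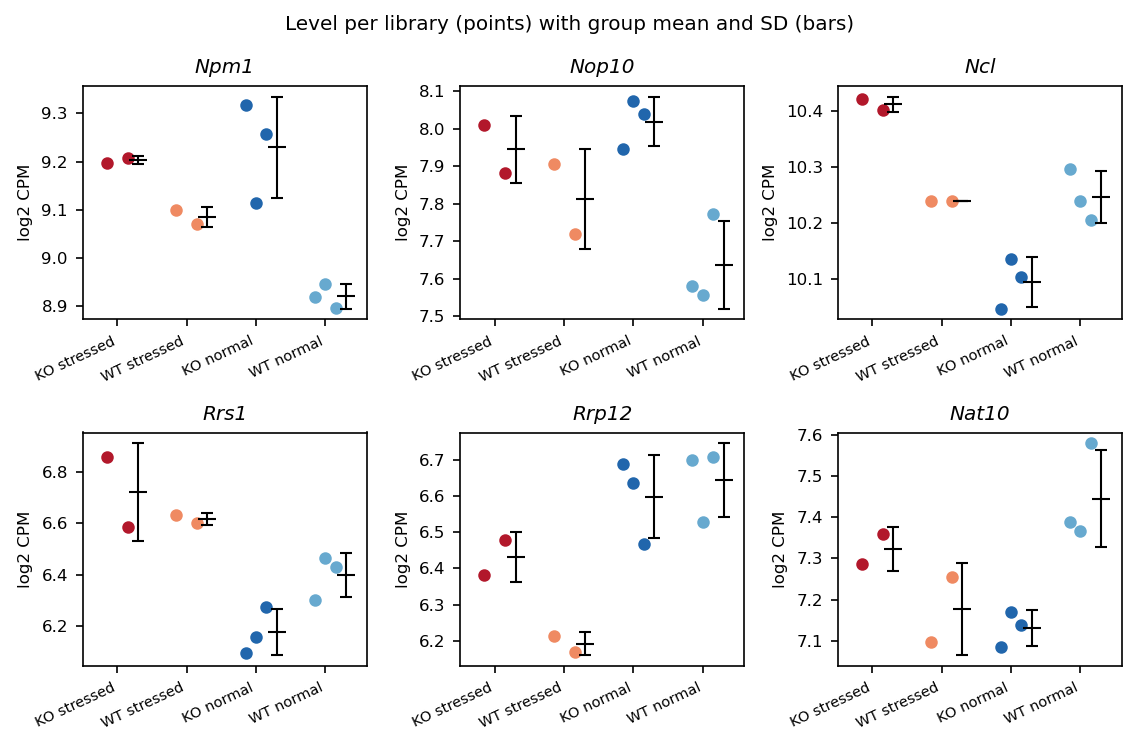
Level in each library (points, log2 CPM, vertical axis) with the group mean and SD (bars) for the 5 called factors and Nat10, in 4 groups (horizontal axis). Npm1 and Nop10 are higher in the KO-labelled normal than the WT-labelled normal libraries, Ncl and Rrs1 are higher in KO-labelled stressed than in KO-labelled normal libraries, and Rrp12 is lower in WT-labelled stressed than in WT-labelled normal libraries.

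The 4 proteins of the box H/ACA snoRNP are Dkc1 (dyskerin, the pseudouridine synthase), Nhp2, Nop10 and Gar1, and they also belong to the telomerase ribonucleoprotein. All 4 had positive differences between the genotypes in normal HSCs, with a median of 0.24, and 1 was called. Nop10 (chr2:112261926-112263269, plus strand) had 246, 270 and 263 CPM in KO-labelled normal libraries, against 192, 188 and 218 CPM in WT-labelled normal libraries. Nop10 rose by 0.38 on the log2 scale (SE 0.078, 1.30-fold, adjusted p = 0.034), with no overlap between the groups. This call was lost in 11 of 20 alternatives, among them the fits without KO-labelled normal library B or C, WT-labelled normal library A or B and KO-labelled stressed library A or B (range of adjusted p 0.021 to 0.29). Nhp2 had 123, 109 and 132 CPM in KO-labelled normal libraries, against 101, 87.4 and 97.7 CPM in WT-labelled normal libraries. The groups did not overlap, with a difference of 0.35 (SE 0.089, adjusted p = 0.094) that was not called. Gar1 and Dkc1 each differed by 0.14 and were not called, and the groups of Gar1 did not overlap.

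Summed over the 4 genes, the box H/ACA proteins had 737.1 and 679 CPM in KO-labelled stressed, 722.8 and 650.4 CPM in WT-labelled stressed, 725.7, 701.6 and 704.8 CPM in KO-labelled normal and 589.8, 584.8 and 608 CPM in WT-labelled normal libraries. The 3 WT-labelled normal libraries were below all 7 others. Between stressed and normal WT-labelled HSCs all 4 differences were positive, with a median of 0.22 and 0 called by limma. At an unadjusted p under 0.05 there were 2 of the 4, against 16.8% of all genes tested. These were Nhp2 (0.34, SE 0.10, adjusted p = 0.096) and Gar1 (0.27, SE 0.11, adjusted p = 0.24). The interaction was negative for all 4, with a median of -0.22, and it was -0.25 for Nop10 (SE 0.12, adjusted p = 0.57).

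Of these 4 genes Nop10, Nhp2 and Gar1 are among the 10 shortest factors by exonic length, and levels moved with that length in the same libraries. Length here counts every base in any annotated exon of a gene, so it is not that of 1 transcript. A smooth trend over all genes put genes of 500 exonic bases at 0.080 to 0.135 (log2) relative to their 10-library means in the 7 libraries of the other groups, and at -0.145 to -0.132 in the 3 WT-labelled normal libraries. At 1000 bases, closer to the lengths of the shortest factors, the trend lay at 0.046 to 0.104 and at -0.096 to -0.093 in the same order. Nop10 has 1109 exonic bases, Nhp2 1146, Gar1 1714 and Imp3, the shortest factor, 924, against a median of 4099 over the 41 factors and 1770 over the ribosomal protein genes. The 10 shortest factors (924 to 2730 bases) had a median difference of 0.13 between the genotypes in normal HSCs, and the 10 longest (6101 to 11955 bases) one of 0.0014. Spearman's rho of the difference with length was -0.28 over the 41 factors and -0.21 over the 15109 genes with a length, as a description, since the genes share the same libraries. With the trend removed from each library, Npm1 was the 1 factor called (0.26, SE 0.046, adjusted p = 0.023), Nop10 differed by 0.22 (SE 0.080, adjusted p = 0.29), and 49 of the 79 ribosomal protein genes were called higher, with a median of 0.32. For the box H/ACA genes the differences with the trend removed were positive for 4 of 4 in normal HSCs by genotype (median 0.17) and for 4 of 4 in WT-labelled HSCs by condition (median 0.16). Their interaction was then positive for 1 (Gar1) and negative for 3, with a median of -0.094. What sets the length trend was not tested.

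**Figure D4:**
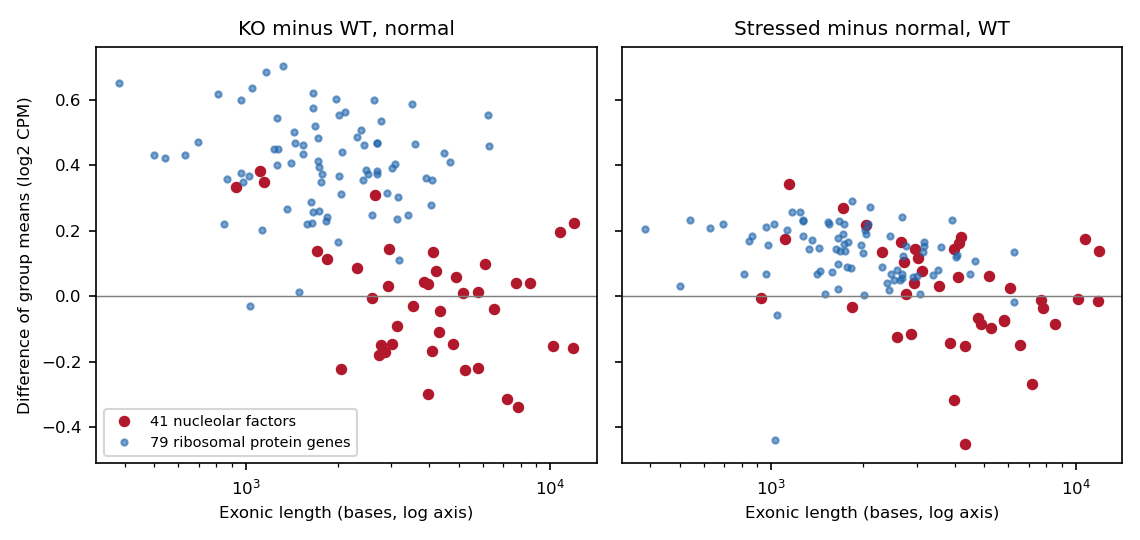
Difference of group means (vertical axis, log2 CPM) against exonic length (horizontal axis, bases, log scale) for the 41 nucleolar factors (red) and 79 ribosomal protein genes (blue), for KO-labelled minus WT-labelled normal HSCs (left) and stressed minus normal WT-labelled HSCs (right). The short factors Imp3, Nop10 and Nhp2 lie among the ribosomal proteins in the left panel, while the 10 longest factors have a median of 0.0014 there.

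The box C/D snoRNP proteins are Fbl (fibrillarin, the methyltransferase), Nop56 and Nop58 (its core scaffold) and Rrp9 (which binds the U3 snoRNP that guides early cleavage). None was called by limma in any comparison. Nop56 had 508, 452 and 474 CPM in KO-labelled normal libraries, against 570, 538 and 503 CPM in WT-labelled normal libraries. These groups overlapped. In stressed HSCs it had 514 and 510 CPM in KO-labelled libraries, against 536 and 580 CPM in WT-labelled libraries, a difference of -0.12 (SE 0.072, adjusted p = 0.67) without overlap. Nop58, the partner of Nop56, differed the other way in normal HSCs, by 0.20, with 308, 280 and 304 CPM in KO-labelled libraries against 247, 282 and 249 CPM in WT-labelled libraries, and these groups overlapped by 1 library each. Fbl differed by 0.08 there, and stressed libraries did not overlap normal ones for Fbl in either genotype (0.15 in KO-labelled and 0.18 in WT-labelled HSCs). Rrp9 stayed between 66.3 and 80.5 CPM in all 10 libraries.

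Of the RNA polymerase I group 0 of 7 genes were called in any comparison. It comprises Polr1a and Polr1b (the 2 largest subunits), Ubtf (upstream binding factor, which binds rRNA gene promoters), Rrn3 (the initiation factor that recruits the polymerase), Tcof1 (treacle, a cofactor of rRNA transcription), Nolc1 (a nucleolar phosphoprotein that binds snoRNPs) and Mybbp1a (known as a repressor of rRNA transcription). In KO-labelled against WT-labelled normal HSCs 2 differences were positive and 5 negative, with a median of -0.11. Mybbp1a had 476, 522 and 446 CPM in KO-labelled normal libraries, against 552, 559 and 568 CPM in WT-labelled normal libraries. The groups did not overlap, with a difference of -0.22 (SE 0.054, adjusted p = 0.076). In stressed HSCs it had 490 and 504 CPM in KO-labelled libraries, against 534 and 527 CPM in WT-labelled libraries, again without overlap (-0.094, SE 0.066, adjusted p = 0.74). Mybbp1a overlaps Spns2 by 131 exonic bases on the opposite strand, Spns2 has a similar level, and the strandedness of the counting is not given in the sources used here.

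Tcof1 had 183, 195 and 167 CPM in KO-labelled normal libraries, against 203, 217 and 216 CPM in WT-labelled normal libraries. In stressed HSCs the order was the opposite, with 221 and 219 CPM in KO-labelled libraries, against 190 and 207 CPM in WT-labelled libraries, and neither pair of groups overlapped. KO-labelled stressed libraries were higher than KO-labelled normal ones by 0.28 (SE 0.078, adjusted p = 0.077), and the interaction was 0.38 (SE 0.11, adjusted p = 0.33). Rrn3 had 106 and 113 CPM in KO-labelled stressed libraries, against 84.7 and 98.2 CPM in WT-labelled stressed libraries (0.26, SE 0.11, adjusted p = 0.53). Ubtf had 201 and 188 CPM in WT-labelled stressed libraries, against 227, 212 and 207 CPM in WT-labelled normal libraries (-0.15, SE 0.082, adjusted p = 0.39). Polr1a lay between 121 and 164 CPM, Polr1b between 142 and 165 CPM and Nolc1 between 199 and 243 CPM over the 10 libraries.

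The small subunit group holds Nop14, Noc4l, Wdr43, Wdr75, Heatr1, Imp3, Imp4 and Rrp12, Bysl and Ltv1 (which act on the nascent or maturing small subunit), Nat10 (the rRNA acetyltransferase) and Ddx10 (an RNA helicase). Of these 12 genes 1 was called in 1 comparison. Rrp12 (chr19:41862851-41896173, minus strand), whose yeast homologue takes part in subunit maturation and export, had 74.2 and 71.9 CPM in WT-labelled stressed libraries, against 104, 92.2 and 104 CPM in WT-labelled normal libraries. Rrp12 fell by 0.45 on the log2 scale (SE 0.10, 0.730-fold, adjusted p = 0.036) and the groups did not overlap. The call was lost in 9 of 20 alternatives, among them the fits without WT-labelled normal library A or C or any 1 of the 4 stressed libraries (range of adjusted p 0.026 to 0.16). In KO-labelled HSCs Rrp12 had 83.4 and 89.2 CPM in stressed libraries, against 103, 99.5 and 88.5 CPM in normal libraries, which overlapped. KO-labelled stressed libraries were above WT-labelled stressed ones by 0.24 (SE 0.11, adjusted p = 0.57).

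Nat10 had 136, 144 and 141 CPM in KO-labelled normal libraries, against 167, 165 and 191 CPM in WT-labelled normal libraries (-0.31, SE 0.078, adjusted p = 0.085). In stressed HSCs it had 156 and 164 CPM in KO-labelled libraries, against 137 and 153 CPM in WT-labelled libraries. Nat10, Tcof1 and Ncl were the 3 factors whose KO-labelled libraries all lay below the WT-labelled ones in normal HSCs and all above them in stressed HSCs. These 3 are 7.32% of the factors, and 1.22% of all genes tested showed the same pair of orders. Mybbp1a, Npm1 and Nhp2 kept 1 order in both conditions without overlap. The share of all genes that did so was not computed, so this count is not read as particular to the factors. The interaction of Nat10 was 0.46 (SE 0.12, adjusted p = 0.27), and Nat10 was also the 1 factor whose stressed libraries all lay above normal ones in KO-labelled HSCs and all below them in WT-labelled HSCs (-0.27, SE 0.088, adjusted p = 0.14). That is 2.44% of the factors, against 1.12% of all genes. Polr1b, Nop56, Nop10 and Nat10 lie on chromosome 2 with Id1, at distances of 23609657, 22456938, 40472982 and 48974981 bases from it, and the 41 factors lie on 18 chromosomes in all.

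Imp3, a protein of the U3 snoRNP, had 90.5, 74.8 and 79 CPM in KO-labelled normal libraries, and every other library lay between 59.5 and 69.1 CPM. Its difference from WT-labelled normal libraries was 0.34 (SE 0.10, adjusted p = 0.17), and KO-labelled stressed libraries were lower than KO-labelled normal ones by -0.30 (SE 0.12, adjusted p = 0.20). Noc4l had 97.8 and 81.8 CPM in KO-labelled stressed libraries, against 111, 104 and 117 CPM in KO-labelled normal libraries (-0.30, SE 0.11, adjusted p = 0.17), and against 98.4 and 105 CPM in WT-labelled stressed libraries (-0.18, SE 0.12, adjusted p = 0.72). Neither pair of groups overlapped. Heatr1 and Nop14 varied more within groups, with within-group SDs of 0.21 and 0.20. Heatr1 had the lowest difference of all 41 factors between the genotypes in normal HSCs, -0.34, with overlapping libraries. Nop14 differed by 0.46 between stressed and normal KO-labelled HSCs, with 72.9 and 92.8 CPM in stressed libraries, against 64.2, 53.4 and 61.8 CPM in normal libraries. The differences of Wdr43, Wdr75, Bysl, Ltv1, Imp4 and Ddx10 were at most 0.20 in size in the 4 pairwise comparisons, and none was called. Bysl shares 361 exonic bases with the more abundant Ccnd3 on the opposite strand.

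The large subunit group holds Bop1, Pes1 and Wdr12 (the PeBoW complex of large subunit maturation), Nop2 (an rRNA methyltransferase), Noc2l and Noc3l (orthologues of yeast export factors of the large subunit), Nop16, Ebna1bp2, Rrs1, Rrp1b and Gnl3 (nucleostemin). Of these 11 genes 1 was called in 1 comparison. Rrs1 (chr1:9545408-9547455, plus strand), whose yeast homologue helps to place the small rRNA of the large subunit, had 116 and 96.1 CPM in KO-labelled stressed libraries, against 68.5, 71.4 and 77.4 CPM in KO-labelled normal libraries. The groups did not overlap, and Rrs1 rose by 0.54 on the log2 scale (SE 0.11, 1.46-fold, adjusted p = 0.015). With library A of the KO-labelled stressed group left out it differed by 0.41 and was not called (adjusted p = 0.16), 1 of the 3 alternatives of 20 that ended the call (range of adjusted p 0.011 to 0.16). In WT-labelled HSCs it had 99.2 and 97.1 CPM in stressed libraries, against 78.8, 88.4 and 86.2 CPM in normal libraries, again without overlap, but the difference of 0.22 was not called. The interaction of Rrs1 was 0.33 and did not pass the threshold.

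None of the 3 PeBoW genes was called in any comparison. Wdr12 had 165, 175 and 202 CPM in KO-labelled normal libraries, against 171, 140 and 154 CPM in WT-labelled normal libraries, and 155 and 150 CPM in KO-labelled stressed libraries, against 166 and 173 CPM in WT-labelled stressed libraries. Its difference between stressed and normal KO-labelled HSCs was -0.24 (SE 0.10, adjusted p = 0.25), and its interaction was -0.37 (SE 0.15, adjusted p = 0.48). Pes1 differed by 0.22 between stressed and normal KO-labelled HSCs and Bop1 by 0.017. Between stressed and normal WT-labelled HSCs the differences were 0.15 for Bop1, 0.12 for Pes1 and 0.14 for Wdr12. Noc2l, the most abundant of the 11, had 359, 318 and 349 CPM in KO-labelled normal libraries, against 371, 383 and 400 CPM in WT-labelled normal libraries, with no overlap and no call. Nop2 lay between 143 and 201 CPM, Nop16 between 86.8 and 108 CPM, Ebna1bp2 between 154 and 180 CPM, Rrp1b between 105 and 128 CPM and Gnl3 between 138 and 165 CPM over the 10 libraries.

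Levels of different genes can be compared per length. On the scale of log2 CPM per kilobase of exonic sequence the 41 factors ranged from 3.28 to 7.70, with a median of 5.26, beside 7.33 for the ribosomal protein genes and 2.66 for all genes tested. On this scale Nop10 had the highest level (7.70), followed by Npm1 (7.69), and Noc3l had the lowest. Exonic length counts every base in any annotated exon and can exceed the length of a transcript. It is 2665 bases for Npm1, whose longest coding transcript has 1633. The order of close genes and the levels by role therefore depend on this choice of length. Noc3l had 50.2 and 25.8 CPM in KO-labelled stressed, 32.8 and 39.3 CPM in WT-labelled stressed, 30.7, 39.5 and 39.7 CPM in KO-labelled normal and 48.1, 41.4 and 44.9 CPM in WT-labelled normal libraries. Noc3l was the most variable factor within groups (SD 0.32), and it was not called. By role, the median level per kilobase was 6.88 for the abundant nucleolar proteins, 6.31 for box H/ACA, 5.57 for large subunit processing, 5.11 for box C/D, 4.96 for RNA polymerase I transcription and 4.65 for small subunit processing.

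**Figure D5:**
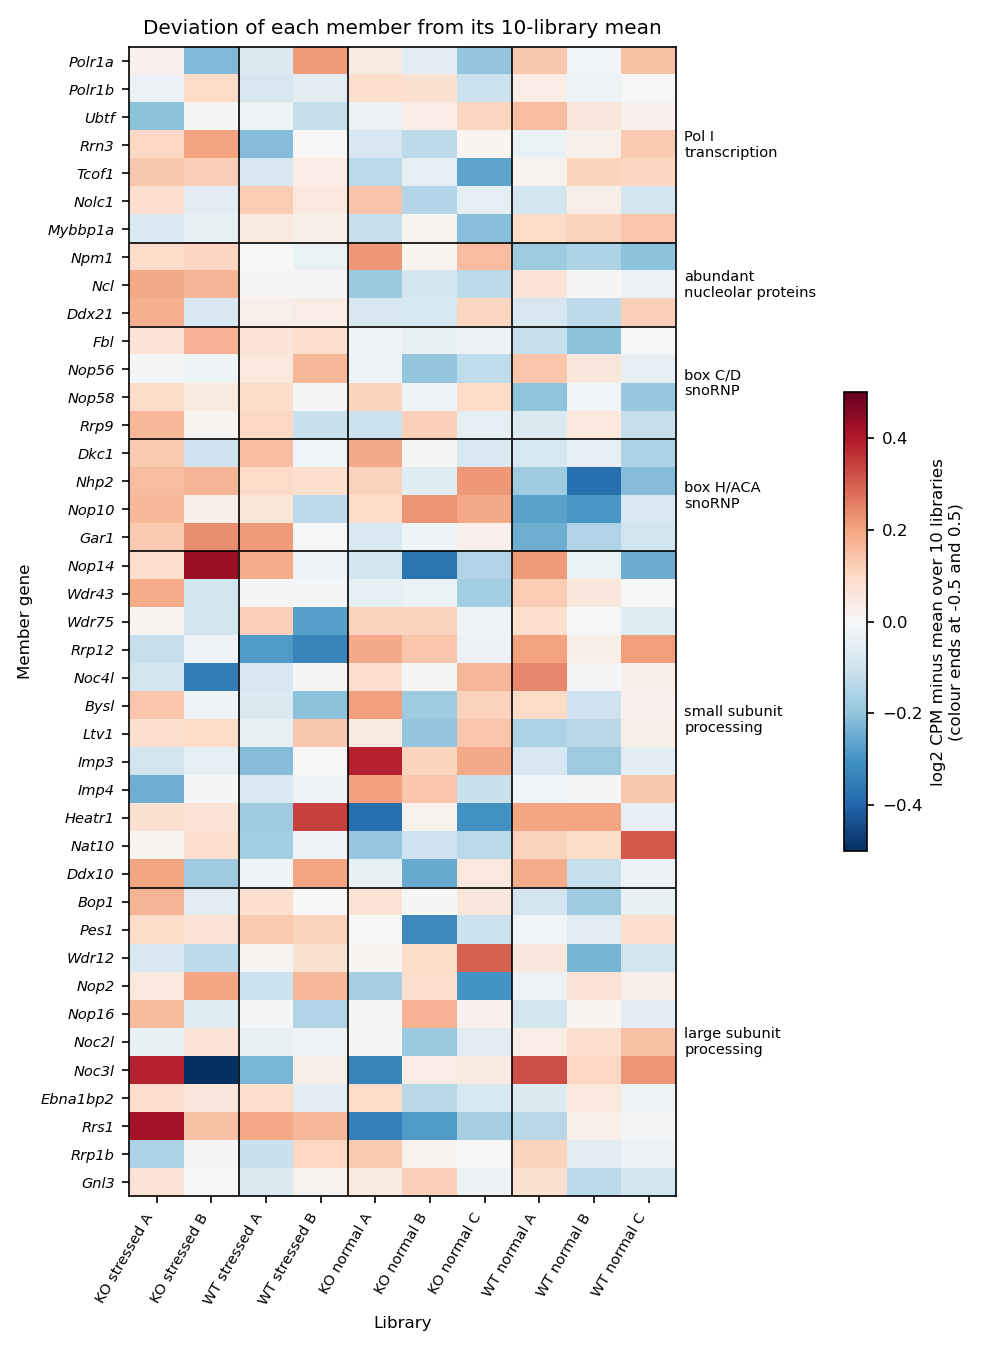
Deviation of each of the 41 factors (rows, grouped by role) from its 10-library mean in each library (columns), in log2 CPM, with colours ending at -0.5 and 0.5. The box H/ACA rows are below their means in the 3 WT-labelled normal libraries, and KO-labelled stressed library A is above the mean in 30 of the 41 rows.

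In stressed HSCs, limma called 0 of the 41 factors between KO-labelled and WT-labelled libraries, against 0.145% of all genes tested. At an unadjusted p under 0.05 there were 2 factors (4.88%; Rrn3 and Ncl), against 8.88% of all genes. The median difference was 0.045, with 28 factors above 0 and 13 below, beside a median of 0.11 and 0 calls among the 79 ribosomal protein genes (24 higher at an unadjusted p under 0.05). Libraries did not overlap for 14 factors (34.1%), against 39.1% of all genes, which with 2 libraries against 2 is near the background.

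Between stressed and normal KO-labelled HSCs, 2 factors (4.88%; Ncl and Rrs1) were called, both higher, against 4.5% of all genes tested and 2.23% called higher. The median was 0.049, with 26 factors above 0 and 15 below. Of the ribosomal protein genes 16 of 79 were lower, with a median of -0.16, Rps27 (-0.44, SE 0.070) and Rpl9 (-0.28, SE 0.047) having the smallest p-values. The count of ribosomal protein genes rests on the stressed libraries: it was 0 when library A of the KO-labelled stressed group was left out and 1 when library B was. Libraries of the factors did not overlap for 15 (36.6%), against 33.1% of all genes.

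Between stressed and normal WT-labelled HSCs, 1 factor (2.44%), Rrp12, was called lower, against 3.3% of all genes tested and 1.75% called lower. The median was 0.0054, with 21 factors above 0 and 20 below, and libraries did not overlap for 19 factors (46.3%), against 36.4% of all genes. Of the ribosomal protein genes 4 rose, among them Rpl41, Rps25 and Rpl5 (by 0.23 to 0.26), and the median over all 79 was 0.14. With the length trend removed 0 of the 79 were called by limma there, with 53 differences above 0, 26 below and a median of 0.032. The comparisons in KO-labelled and WT-labelled HSCs share their normal libraries with the comparisons of genotype, so their values are given side by side and not as separate evidence.

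The interaction of genotype and condition was called by limma for 0 of the 41 factors, against 0.0198% of all genes tested. At an unadjusted p under 0.05 there were 7 factors (17.1%), against 9.15% of all genes: Rrn3, Tcof1, Ncl, Nat10 and Noc2l above 0, and Npm1 and Wdr12 below. The median over the factors was 0.013, beside -0.30 over the ribosomal protein genes, of which 0 were called and 65 were lower at an unadjusted p under 0.05.

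Genes around the factors in the same pathway were also read off the fit. The 1 rRNA transcript of 7 listed that is in the table, Rn18s-rs5, a copy of the small subunit rRNA, averaged 10.39 log2 CPM in KO-labelled stressed, 10.59 in WT-labelled stressed, 11.29 in KO-labelled normal and 11.04 in WT-labelled normal libraries. In normal HSCs it was higher in KO-labelled libraries than in WT-labelled ones by 0.25 (SE 0.045, adjusted p = 0.018) and fell in stressed against normal HSCs, by 0.90 in KO-labelled (SE 0.050, adjusted p = 2e-06) and by 0.45 in WT-labelled HSCs (SE 0.050, adjusted p = 0.00066). How rRNA was removed before sequencing is not given in the sources used here, so its level may reflect that step, which was not tested. Of 9 tested genes of the MYC network, 0 were called between genotypes in either condition. At an unadjusted p under 0.05 there were 4 in normal and 4 in stressed HSCs (44.4% in each, against 13.9% and 8.88% of all genes). In KO-labelled libraries 2 were higher and 2 lower in normal HSCs, while 0 were higher and 4 lower in stressed HSCs. Between stressed and normal KO-labelled HSCs limma called 3 of the 9 (33.3%), against 4.5% of all genes tested. Max fell there by 0.71 (SE 0.13, adjusted p = 0.0086) and Mycn by 0.32 (SE 0.058, adjusted p = 0.010), while Mxd3, a MAX partner that represses, rose by 1.54 (SE 0.35, adjusted p = 0.030). Mxd3 also rose in WT-labelled HSCs, by 1.45 (SE 0.35, adjusted p = 0.046), the 1 of the 9 called there (11.1%, against 3.3% of all genes). Among the 102 other ribosome biogenesis genes limma called 0 in each of the 5 comparisons, with medians between -0.031 and 0.083, and between 6 and 20 of them at an unadjusted p under 0.05. Beside the 20 in normal HSCs by genotype these were 6 in stressed HSCs by genotype (5.88%, against 8.88% of all genes), 7 in KO-labelled HSCs by condition (6.86%, against 17.9%), 9 in WT-labelled HSCs by condition (8.82%, against 16.8%) and 9 for the interaction (8.82%, against 9.15%).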

How the data were processed

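RNA sequencing of 10 libraries was aligned with Bowtie2 to mm10 and counted with featureCounts, per the submitters' processing notes, without versions. The deposited values are log2 CPM, and the authors' table names limma voom in its title only. All libraries share nearly 1 distribution of values, so the authors' values had been quantile normalized. Depth was estimated from the steps between low values (10 to 100 reads) after that normalization, so it is only approximate for each library.

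Genes above a log2 CPM of 0 in at least 2 libraries were kept (15143 genes). A limma 3.58.1 model in R 4.3.3 with 4 group means over all 10 libraries (6 residual degrees of freedom) used a variance trend, no replicate block and Benjamini-Hochberg adjustment over all genes tested, with calls at an adjusted p under 0.05. CPM values are 2 to the power of the deposited values. The model was tested on simulated data. Exonic lengths (all bases in any annotated exon of a gene) and coordinates came from the GENCODE annotation of the same build (20199 genes matched), with coordinates counted from 1. Motifs were searched on both strands in Python 3.11.15, and gene copies with blastn 2.17.0.

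The members and lists were chosen with earlier results of these data known. Full statistics go to called factors, the 3 with the largest positive and negative moderated statistics per comparison, and the highest and lowest level per kilobase. Exceptions named after their values were seen are Nop58, Fbl, Heatr1, Nop14, Imp3 in normal HSCs, and Noc2l. Of the context lists, up to 4 called genes per comparison are named, and 1 such gene is not reported here. Alternatives covered the variance trend, filters, a pseudocount of 1 CPM, median centring, library weights, a replicate block, the libraries in the fit, the threshold, the length trend, the promoter window and leaving out each library.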

Additional observations from a re-analysis of the deposited data

How the results depend on the processing

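Of the differences that chose the named factors, each recomputed under the alternatives, 0 changed sign. With the length trend removed, 11 of all 205 differences of the 41 factors changed sign, none over 0.063 in size, among them Ncl between stressed and normal WT-labelled HSCs (-0.0077, then 0.061) and the interaction of Gar1 (-0.063, then 0.055). In total 0 of the 41 factors were called by limma between genotypes in stressed HSCs under each alternative run. The numbers of factors called were 2, 2, 1 and 0 (KO-labelled against WT-labelled normal, stressed against normal KO-labelled, stressed against normal WT-labelled, interaction). Without a variance trend they were 0, 0 and 0 for the first 3, against 45, 346 and 256 of all 15143 genes. With only the compared groups they were 0, 1 and 0, against 133, 249 and 330. At a threshold of 0.1 they were 6 for KO-labelled against WT-labelled normal HSCs, 2 for stressed against normal WT-labelled HSCs and 1 for the interaction, against 400, 872 and 26 of all genes. In stressed against normal KO-labelled HSCs Tcof1 (limma adjusted p = 0.077) joined Ncl and Rrs1 there, against 1067 of all genes. With no filter on low values 1 was called between genotypes in normal HSCs, against 224 of 20270 genes. With the length trend removed it was also 1, against 129 of 15109 genes, and the median interaction of the factors moved to 0.051. Leaving out each library gave 1 to 4, 1 to 3, 0 to 1 and 0 called factors. Genes of all kinds called numbered 129 to 238, 474 to 598, 251 to 612 and 1 to 6 of 15143 when a normal library was left out. Fits without a stressed library keep 1 library in that group, and their counts over all genes are not given. The ranges of factors and of all genes therefore cover different fits and are not a matched comparison. With each library left out in turn, the medians of the factors ranged from -0.023 to 0.015, from -0.012 to 0.091, from -0.0077 to 0.071 and from -0.012 to 0.10, so that their signs are not settled. The cause of these changes was not tested. No pairing of samples by replicate letter was seen: over 13 same-letter pairs the correlations of deviations ran from -0.024 to 0.038, and 0 exceeded 0.1. The check used all genes tested and could miss a shared source that moves only some genes. In groups of 2 libraries the deviations of A and B also mirror each other, so it does not decide whether letters pair samples. With the replicate block the counts were 1 in KO-labelled against WT-labelled normal HSCs and 0 in stressed against normal WT-labelled HSCs, against 181 and 289 of all 15143 genes. Ribosomal protein genes called in normal HSCs numbered 67, against 13 without a variance trend, 49 with the length trend removed and 54 to 67 when a library was left out. Genes of all kinds called there numbered 236, and 45 without a variance trend. In whole promoter windows CACGTG was present in 15.9% of the factors' windows, against 7.15% of all windows.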

Other observations

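Annotated snoRNA genes lie inside 6 of the 41 factors, 19 in all, with 5 in Nop56, 4 in Nop58, 3 each in Ncl, Wdr43 and Gnl3, and 1 in Dkc1. The 3 inside Gnl3 are in the table, at mean levels of -1.03 (Snord69), 0.30 (Snord19) and -2.70 (Gm24916) on the log2 CPM scale, against 7.25 for Gnl3. Immunoglobulin Igkc, a plasma cell transcript, had 129.69 and 136.02 CPM in the KO-labelled stressed libraries and at most 1.50 CPM in each of the 8 other libraries, and its part in the levels of the factors there was not tested.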
